A study of Mus musculus with 24 samples.

Results

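The genes described here encode the conjugating enzymes of xenobiotic metabolism, that is glutathione S-transferases, UDP-glucuronosyltransferases and sulfotransferases, measured in the terminal ileum of conventional and germ-free mice. The rule for members was set with earlier results of these data known. It took by symbol all genes of these families named Gst, Mgst, Ugt or Sult that had a probe set of their own. This gave 44 of 18820 genes, namely 20 glutathione S-transferases including the membrane-bound Mgst1, Mgst2 and Mgst3, 9 UDP-glucuronosyltransferases and 15 sulfotransferases. A further 19 symbols of these families lie only on probe sets shared between several genes and were not counted.

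All 24 animals were male C57BL/6OlaHsd mice of 8 weeks old on a D12450B diet with 10% fat for at least 2 weeks. Conventional and germ-free mice were gavaged daily for 5 days with water, with 10 mg of short-chain β2→1-fructan or with 10 mg of long-chain β2→1-fructan, both from chicory inulin, with 4 mice in each of the 6 groups. Conventional mice were purchased from a commercial supplier and germ-free mice came from a university breeding colony, so that colonization and origin cannot be told apart. For germ-free mice only, short-chain β2→1-fructan was filtered and long-chain β2→1-fructan was irradiated, which shortened its longest chains, so that sterilization and the response of germ-free mice to each fructan cannot be told apart either. RNA was taken from whole pieces of ileum and hybridized to Affymetrix Mouse Gene 1.1 ST arrays, 1 per mouse. Values are log2 expression after robust multiarray averaging, with array medians of 4.92 to 4.98, and the number of arrays limits the precision.

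These enzymes carry out the conjugation step of detoxification. Glutathione S-transferases couple electrophiles, among them drugs, dietary compounds and products of lipid peroxidation, to glutathione. UDP-glucuronosyltransferases of the endoplasmic reticulum transfer glucuronic acid from UDP-glucuronate to steroids, bile acids and drugs, and cytosolic sulfotransferases transfer a sulfonate group from the donor PAPS to phenols, steroids and alcohols. Enterocytes express all of these classes, and many of their genes are known targets of the transcription factor NRF2, which answers to oxidative and electrophilic stress through the antioxidant response element, and of the receptors PXR, CAR and AHR. Bacterial glucuronidases and sulfatases of the gut can split the conjugates again.

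The labelled tissue was checked against its markers. The mean log2 level of 14 enterocyte genes, which include the ileal bile acid carriers Slc10a2 and Fabp6, was 11.46 to 11.65 in conventional and 11.43 to 11.79 in germ-free mice, and the 2 ranges overlapped. Members spanned the range of the array: Ugt2b34, Sult1d1, Gsto1, Mgst3, Gstp1 and Mgst1 had mean values between the 96.8 and the 99.2 percentile of all genes, whereas 10 members, 8 of them sulfotransferases and 2 UDP-glucuronosyltransferases, were below the 10th percentile with mean log2 values of 1.73 to 2.42. The values carry no detection call, so that expression and background cannot be told apart for these 10.

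Germ-free mice had higher expression of several glutathione S-transferases and UDP-glucuronosyltransferases than conventional mice. With the 3 gavages averaged, 8 of 44 members were called (18.2%), all of them higher in germ-free mice. Over all genes 8.20% were called, 2.99% higher and 5.22% lower. Throughout, a gene counts as called where limma gives p under 0.01 before adjustment together with more than a 1.3-fold difference, which are the thresholds of the study. They were 5 of 20 glutathione S-transferases (Gsta3, Gsta4, Gstm3, Gstm6 and Mgst1), 3 of 9 UDP-glucuronosyltransferases (Ugt2b36, Ugt2b5 and Ugt2b38) and 0 of 15 sulfotransferases. At a Benjamini-Hochberg adjusted p under 0.05 (limma), 21 of 44 members passed against 34.0% of all genes, 20 of them higher in germ-free mice against 18.6% of all genes and 1 lower. The median log2 fold change was 0.14 over members, 0.21 over glutathione S-transferases, 0.24 over UDP-glucuronosyltransferases and 0.01 over sulfotransferases, beside 0.03 over all genes. As 8 of the 15 sulfotransferases lie below the 10th percentile of all genes, the classes are not compared on equal terms. As RNA of whole tissue was measured, fewer cells of a type and less RNA per cell cannot be told apart.

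**Figure D1:**
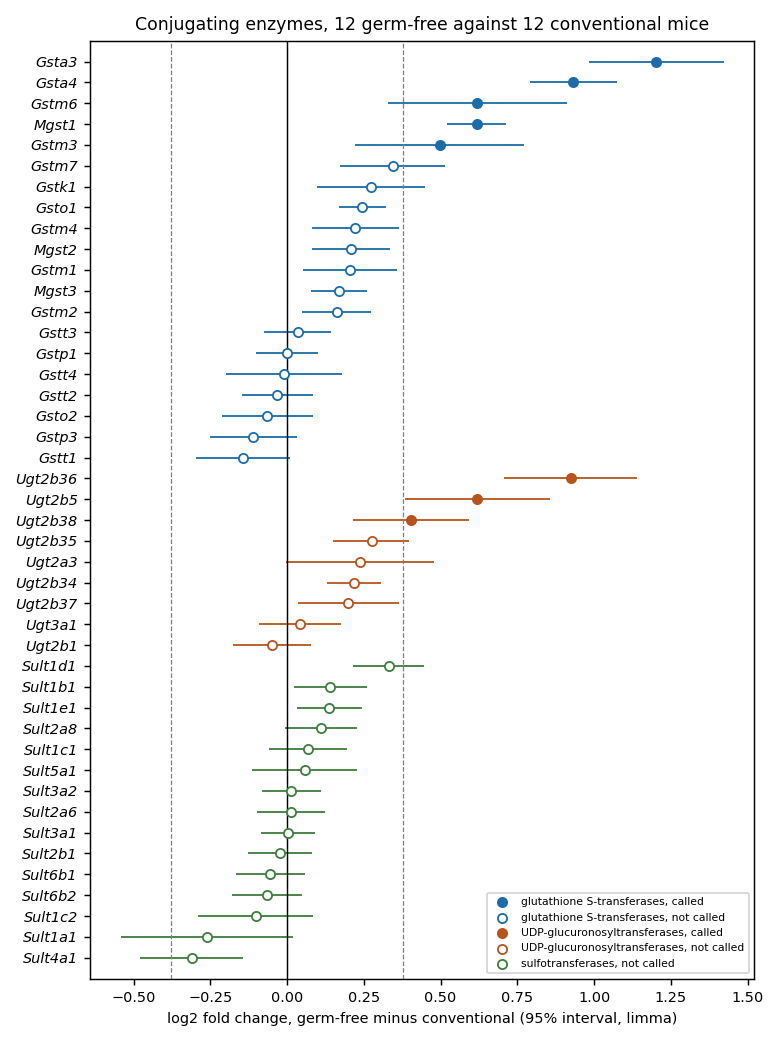
Log2 fold change of each of the 44 members between 12 germ-free and 12 conventional mice, with the 3 gavages averaged (x axis), for each gene (y axis), coloured by enzyme class; bars are 95% intervals from limma, filled points are called members and dashed lines mark a 1.3-fold change. The 8 called members all lie to the right, between 0.40 for Ugt2b38 and 1.20 for Gsta3, and no sulfotransferase is among them. Of the 15 sulfotransferases, 8 have mean values below the 10th percentile of all genes.

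Of the members, Gsta3 and Gsta4, the class alpha glutathione S-transferases, had the 2 largest differences in this fit. With the level of adipocyte markers as a covariate, the difference of Gsta3 fell to 0.61 and Ugt2b36 had a larger one (1.20) than either, as given below. Gsta3 (chromosome 1, 21240565 to 21265575 of GRCm38), an alpha enzyme known for its high activity toward the activated form of aflatoxin in the mouse, had a lowest, median and highest log2 expression of 5.02, 5.55 and 5.71 in 12 conventional mice and of 6.19, 6.63 and 7.28 in 12 germ-free mice. Every germ-free mouse was above every conventional mouse. The difference was 1.20 on the log2 scale (SE 0.11, 2.30-fold, adjusted p = 1.24e-09 in limma). Gsta4 (chromosome 9, 78191966 to 78209349), which conjugates 4-hydroxynonenal, an aldehyde from lipid peroxidation, had a lowest, median and highest log2 expression of 7.36, 7.73 and 8.05 in conventional and of 8.39, 8.74 and 8.94 in germ-free mice. Here too the groups did not overlap, and the difference was 0.93 (SE 0.07, 1.91-fold, adjusted p = 3.54e-11 in limma). These are the only alpha enzymes with a probe set of their own. The other alpha genes, Gsta1 and Gsta2, lie together with predicted genes on 4 shared probe sets, which were between 4.44-fold and 5.02-fold higher in germ-free mice, with log2 levels of 6.82 to 8.16 in conventional and 9.09 to 10.4 in germ-free mice. On these 4 probe sets no mice of the 2 colonization states overlapped, which is given as a description and was not tested.

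Among the 3 membrane-bound enzymes, Mgst1 (chromosome 6, 138140527 to 138156755), a transferase and peroxidase of the endoplasmic reticulum and the outer mitochondrial membrane, was called. Its lowest, median and highest log2 expression was 9.26, 9.48 and 9.65 in conventional and 9.69, 10.1 and 10.3 in germ-free mice. The groups did not overlap, by a margin that was narrow, and the difference was 0.62 (SE 0.05, 1.53-fold, adjusted p = 5.72e-11 in limma). Mgst2 and Mgst3, which act in leukotriene synthesis as well, were 1.16-fold (adjusted p = 0.010) and 1.12-fold higher (adjusted p = 0.0041), below the fold threshold. Gsta3, Gsta4 and Mgst1 were the only 3 of 44 members (6.82%) whose 12 germ-free and 12 conventional values did not overlap, whereas over all genes this held for 3.75%, and for 1.31% with germ-free mice higher.

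All 6 mu class enzymes with a probe set of their own, whose genes lie side by side on chromosome 3, were higher in germ-free mice at an adjusted p under 0.05, and 2 of them passed the fold threshold too. Gstm6 had a lowest, median and highest log2 expression of 3.55, 4.53 and 4.98 in conventional and of 4.53, 5.03 and 5.80 in germ-free mice (difference 0.62, SE 0.14, 1.54-fold, adjusted p = 0.0011 in limma). Gstm3 had values of 7.69, 8.08 and 8.51 against 8.07, 8.59 and 9.80 (difference 0.50, SE 0.13, 1.41-fold, adjusted p = 0.0047). For both genes the groups overlapped. A second probe set of Gstm3 differed in the same direction by 0.61. Gstm1, Gstm2, Gstm4 and Gstm7 were 1.12-fold to 1.27-fold higher. Probe sets of such close relatives may share signal, which was not tested.

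The other classes of glutathione S-transferase differed less. Gsto1, an omega enzyme that reduces dehydroascorbate, was 1.19-fold higher in germ-free mice (adjusted p = 8.31e-06) and Gstk1, the kappa enzyme of mitochondria and peroxisomes, 1.21-fold (adjusted p = 0.014). The pi class enzyme Gstp1, which is abundant in many epithelia, had a mean log2 expression of 9.77 ± 0.15 in conventional and 9.77 ± 0.13 in germ-free mice (SD, n = 12). Its 95% interval of the difference ran from -0.10 to 0.10. Gstp3 and the 4 theta enzymes Gstt1, Gstt2, Gstt3 and Gstt4 had log2 differences of -0.15 to 0.04 and did not pass the adjusted threshold, nor did Gsto2.

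UDP-glucuronosyltransferases of the 2B subfamily, encoded side by side on chromosome 5, were the second group. Ugt2b36 had a lowest, median and highest log2 expression of 4.36, 4.65 and 5.53 in conventional and of 5.14, 5.70 and 6.29 in germ-free mice. The difference was 0.92 (SE 0.11, 1.90-fold, adjusted p = 1.06e-07 in limma), and the overlap came from 1 conventional mouse on water at 5.53, since the other 11 conventional mice were below every germ-free mouse. Ugt2b5, a major hepatic form in the mouse, had values of 4.11, 4.99 and 5.53 against 5.15, 5.53 and 6.20 (difference 0.62, SE 0.12, 1.54-fold, adjusted p = 1.14e-04). Ugt2b38 had values of 3.59, 4.06 and 4.27 against 4.14, 4.41 and 4.94 (difference 0.40, SE 0.09, 1.32-fold, adjusted p = 0.0010). Its fold change was close to the threshold, and the call was lost in limma without conventional short replicate 2 (log2 difference 0.36), germ-free short replicate 4 (0.37) or germ-free long replicate 1 (0.35). Ugt2b34 and Ugt2b35 were 1.16-fold and 1.21-fold higher (adjusted p = 2.48e-04 and 6.87e-04), and Ugt2b1, Ugt2b37, Ugt2a3 and Ugt3a1 did not pass the adjusted threshold. The 1A subfamily, which glucuronidates bilirubin and many drugs, is measured by 1 probe set shared by 8 genes. It was 1.59-fold higher in germ-free mice, with log2 levels of 6.997 to 7.484 in conventional and 7.62 to 8.17 in germ-free mice that did not overlap, and it was not counted or tested.

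**Figure D2:**
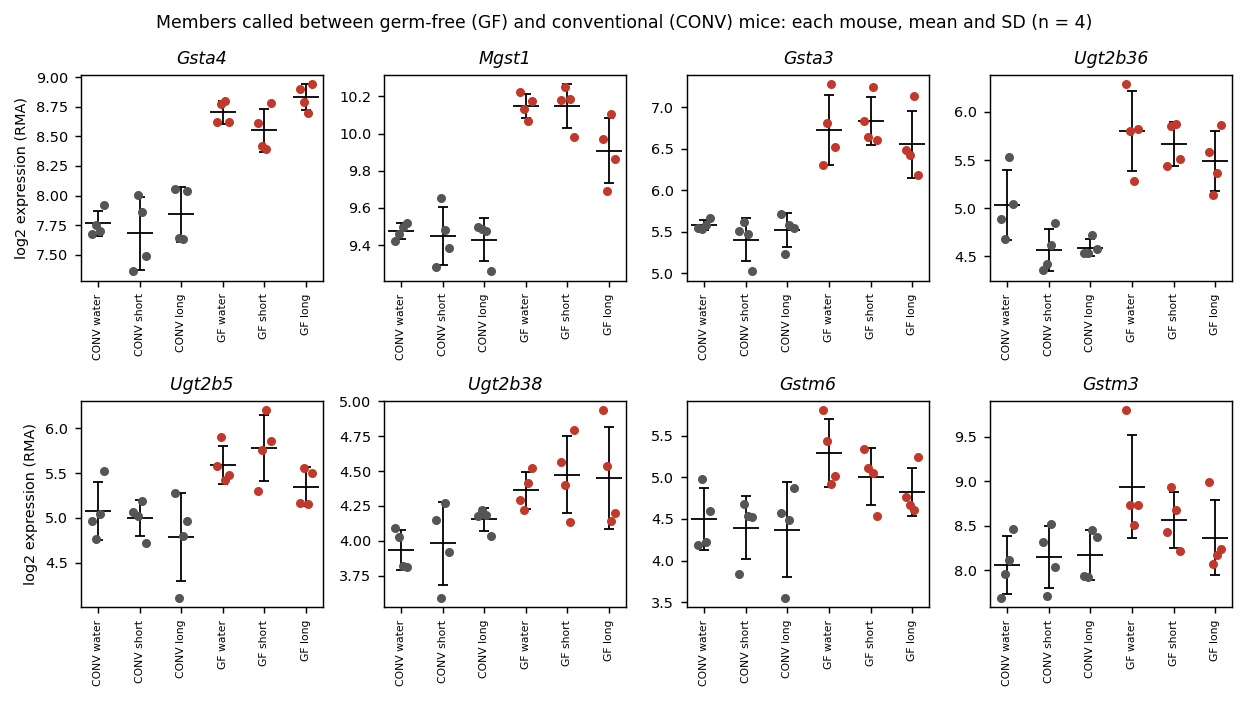
Log2 expression (y axes, robust multiarray average) of the 8 members called between germ-free (GF) and conventional (CONV) mice, in each of the 6 groups (x axes); each point is a mouse, and the line and bars are the mean and SD of 4 mice. For Gsta4, Mgst1 and Gsta3 all germ-free points lie above all conventional points, whereas the other 5 genes overlap.

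Sulfotransferases differed least. Sult1d1, which sulfonates catecholamines and other small phenols, was 1.26-fold higher in germ-free mice (log2 expression 9.92 ± 0.15 in conventional and 10.3 ± 0.2 in germ-free mice, SD, n = 12, adjusted p = 3.49e-05 in limma), under the fold threshold. Sult1e1, the estrogen sulfotransferase, also passed the adjusted threshold (log2 difference 0.14, adjusted p = 0.040), but lies among the 10 members with the lowest values. Sult4a1, a form expressed in the nervous system, was the 1 member that was lower in germ-free mice at an adjusted p under 0.05, by 1.24-fold (log2 difference -0.31, SE 0.08, adjusted p = 0.0038). Neuron and glia markers were lower too, with a mean log2 level over 5 genes of 5.05 to 5.47 in conventional and 4.71 to 5.03 in germ-free mice, and their part in the value of Sult4a1 was not tested. Sult1b1, a phenol sulfotransferase of the intestine, had a log2 difference of 0.14 with an adjusted p of 0.060, and Sult2b1, which sulfonates cholesterol, had a 95% interval of -0.13 to 0.08.

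The reference sequences upstream of these genes are shown for 2 of the members whose groups did not overlap and for the 3 called 2B genes, to set what the promoters share beside the values. Windows of 300 bases, from 250 before to 50 after the start site, were taken from RefSeq (GRCm38.p6) and were at hand for 41 of 44 members and for 7 of the 8 called. The core of the antioxidant response element, TGACNNNGC on either strand, occurs in 12.39% of all 32851 windows and in those of 3 of 41 members (7.32%), namely Gsta3, Mgst1 and Gstm7. In Gsta3 it begins at position -121 and in Mgst1 at position -56 from the start site, and it is printed in capitals.
Gsta3 (chr1:21240335-21240634, plus strand): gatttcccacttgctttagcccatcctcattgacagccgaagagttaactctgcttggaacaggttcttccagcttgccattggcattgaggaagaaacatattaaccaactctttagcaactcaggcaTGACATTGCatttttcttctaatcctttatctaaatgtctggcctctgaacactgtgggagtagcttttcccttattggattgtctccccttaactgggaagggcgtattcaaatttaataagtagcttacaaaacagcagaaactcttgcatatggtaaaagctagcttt
Mgst1 (chr6:138140277-138140576, plus strand): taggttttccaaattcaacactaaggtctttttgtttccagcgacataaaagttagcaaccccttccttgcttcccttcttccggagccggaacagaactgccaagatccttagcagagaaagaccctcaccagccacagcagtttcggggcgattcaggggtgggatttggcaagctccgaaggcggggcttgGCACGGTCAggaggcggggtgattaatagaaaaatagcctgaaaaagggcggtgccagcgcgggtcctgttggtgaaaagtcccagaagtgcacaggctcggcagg
The core GCGTG, bound by the receptor AHR, occurs on either strand in 32.39% of all windows and in those of 7 of 41 members (17.07%). These were Gstm1, Gstp1, Gstp3, Mgst3, Sult1b1, Sult1d1 and Sult2b1. None of these 7 was called, beside 8 of 44 members and 8.20% of all genes, and so few genes give no result about the core. The shares over all windows count windows, whereas those of members count genes with a match in any of their windows, so that the 2 are unlike measures. Overlap between the 2 cores was not removed, and a match is a description of letters, not of binding.

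The windows of Ugt2b36, Ugt2b5 and Ugt2b38 have in common a run of 22 bases that begins 31, 28 and 31 bases upstream of the start site (positions -31, -28 and -31). It is printed in capitals.
Ugt2b36 (chr5:87092506-87092805, minus strand): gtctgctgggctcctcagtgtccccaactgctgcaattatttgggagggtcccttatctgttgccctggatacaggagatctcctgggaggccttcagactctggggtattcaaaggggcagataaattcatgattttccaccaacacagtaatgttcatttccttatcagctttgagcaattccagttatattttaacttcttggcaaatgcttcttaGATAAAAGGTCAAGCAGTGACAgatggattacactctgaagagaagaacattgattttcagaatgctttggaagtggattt
Ugt2b5 (chr5:87140291-87140590, minus strand): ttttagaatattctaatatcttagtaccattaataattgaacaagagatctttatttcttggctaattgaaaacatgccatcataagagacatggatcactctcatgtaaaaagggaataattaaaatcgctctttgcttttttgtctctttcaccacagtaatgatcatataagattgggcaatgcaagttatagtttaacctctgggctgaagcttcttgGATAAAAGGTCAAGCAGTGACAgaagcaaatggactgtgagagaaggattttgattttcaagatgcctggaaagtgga
Ugt2b38 (chr5:87424154-87424453, minus strand): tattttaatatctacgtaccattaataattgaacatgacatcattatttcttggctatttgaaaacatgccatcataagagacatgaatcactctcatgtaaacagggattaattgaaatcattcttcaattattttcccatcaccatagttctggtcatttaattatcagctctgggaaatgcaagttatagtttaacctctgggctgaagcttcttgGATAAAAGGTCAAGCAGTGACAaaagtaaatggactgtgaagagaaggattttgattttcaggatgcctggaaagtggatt
The run was picked because the windows of the called genes Ugt2b36, Ugt2b5 and Ugt2b38 share it. Its presence in those windows is therefore given by the choice and is no test. On either strand this run occurs in 4 of 32851 windows (0.0122%), those of Ugt2b36, Ugt2b5, Ugt2b38 and Ugt2b37, and thus in 4 of the 7 members of the 2B subfamily. Of these 4 genes Ugt2b37 was not called (1.15-fold higher, adjusted p = 0.057). These genes are neighbours of the same subfamily, and whether the run reflects more than their relatedness was not tested. A link between the run and the calls was not tested either.

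Colonization was also compared within each gavage. Of 44 members, 7 were called on water (15.9%; 8.74% over all genes), 7 on short-chain β2→1-fructan (15.9%; 8.76% over all genes) and 6 on long-chain β2→1-fructan (13.6%; 9.69% over all genes). All were higher in germ-free mice, a direction in which 2.77%, 4.29% and 3.43% of all genes were called. Gsta3, Gsta4, Mgst1 and Ugt2b36 were called in each of the 3 comparisons. On water, Gsta4 was 7.68, 7.76, 7.70 and 7.92 in the 4 conventional and 8.62, 8.78, 8.79 and 8.62 in the 4 germ-free mice, Gsta3 was 5.55, 5.53, 5.59 and 5.67 against 6.31, 6.81, 7.28 and 6.52, and Mgst1 was 9.42, 9.46, 9.50 and 9.52 against 10.2, 10.1, 10.1 and 10.2. No groups overlapped for these 3 genes within any gavage, and the exact two-sided permutation test gave p = 0.029 each time, the smallest it can give with 4 mice against 4. For these genes every germ-free mouse was above every conventional mouse over all gavages. The lack of overlap and these p-values within each gavage follow from that and are no separate support. The log2 difference of Gsta3 was 1.15 on water, 1.43 on short-chain and 1.04 on long-chain β2→1-fructan, that of Gsta4 0.94, 0.87 and 0.99, that of Mgst1 0.68, 0.70 and 0.48 and that of Ugt2b36 0.76, 1.11 and 0.90.

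The remaining calls stood in 1 or 2 of the gavages. Gstm3, Gstm6 and Gstm7 were called on water (log2 differences of 0.88, 0.80 and 0.56), Gstm4 and Ugt2b38 on short-chain β2→1-fructan (0.49 and 0.49), Ugt2b5 on both fructans (0.78 and 0.56) and Ugt2b35 on long-chain β2→1-fructan (0.40). Of these, 4 calls were each lost when 1 of 4 mice was left out: Gstm6 without conventional water replicate 1 or 3 or germ-free water replicate 1 or 2 (0.63 to 0.75), Ugt2b38 without conventional short replicate 2 or 4 or germ-free short replicate 1 or 4 (0.36 to 0.47), Ugt2b35 without conventional long replicate 1 or 2 or germ-free long replicate 1 or 4 (0.33 to 0.37), and Ugt2b5 on long-chain β2→1-fructan without conventional long replicate 2 or 3 or germ-free long replicate 2 or 4 (0.33 to 0.56). That last value of Ugt2b5 had an adjusted p of 0.057 with all mice (limma). Its call was also lost with 1 prior variance for all genes (unadjusted p = 0.012), only the arrays compared (0.014), array weights (log2 difference 0.41, unadjusted p = 0.067) or the replicate number as a block (0.013), and that of Ugt2b38 on short-chain β2→1-fructan with only the arrays compared (0.011). Those lost with the level of adipocyte markers in the fit are given with these markers. A call in 1 gavage alone does not show that the gavages differ. The test of that difference, the interaction of colonization with each fructan against water, called 0 of 44 members for short-chain (0.707% over all genes) and 0 of 44 for long-chain β2→1-fructan (0.531% over all genes). At an unadjusted p under 0.05, 2 and 3 members passed, against 5.45% and 3.74% of all genes. The members with the smallest p were Sult6b1, Sult1e1 and Gstm4 for short-chain and Sult1e1, Sult6b1 and Gstm3 for long-chain β2→1-fructan, of which Gstm3 had the largest interaction (log2 -0.69, SE 0.33, unadjusted p = 0.045, adjusted p above 0.99). It was -0.41 without germ-free water replicate 1 (unadjusted p = 0.16) and would have been called without germ-free long replicate 1 (-0.90). In 4 against 4 mice, 11 of 44 members did not overlap on water (17.9% over all genes), 14 on short-chain (19.9% over all genes) and 6 on long-chain β2→1-fructan (15.9% over all genes).

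In conventional mice the fructans left these genes without a call. Against water, 0 of 44 members were called on short-chain β2→1-fructan (0.409% over all genes) and 0 of 44 on long-chain β2→1-fructan (0.313% over all genes), and 3 and 6 members had an unadjusted p under 0.05, against 5.22% and 5.67% of all genes. Both comparisons share the 4 water mice. The smallest p belonged to Ugt2b36, Sult6b1 and Gstt3 on short-chain and to Sult1e1, Ugt2b36 and Sult6b1 on long-chain β2→1-fructan, and all 6 values were below 0. Sult6b1 and Sult1e1 are among the 10 members with the lowest levels. Ugt2b36 was 4.88, 4.68, 5.53 and 5.05 on water, 4.36, 4.42, 4.62 and 4.85 on short-chain and 4.53, 4.53, 4.72 and 4.57 on long-chain β2→1-fructan. Both treated groups overlapped the water group, which is raised by its mouse at 5.53. The difference was -0.47 for short-chain (SE 0.18, unadjusted p = 0.016) and -0.45 for long-chain β2→1-fructan (SE 0.18, unadjusted p = 0.022), with adjusted p of 0.91 and 0.86 in limma. It would have been called on short-chain β2→1-fructan with the spread taken from the 12 conventional arrays alone (unadjusted p = 0.0069) or without conventional short replicate 4 (-0.57), and on both fructans without conventional water replicate 2 (-0.59 and -0.56). Without the mouse at 5.53, conventional water replicate 3, the differences were -0.31 and -0.28 (unadjusted p = 0.10 and 0.14). In 4 against 4 mice, 0 members did not overlap on short-chain β2→1-fructan and water (4.08% over all genes), whereas 4 were lower without overlap on long-chain β2→1-fructan (4.21% over all genes), namely Gstt3, Mgst3, Sult1e1 and Ugt2b34, with log2 differences of -0.23 to -0.11 (exact permutation p = 0.029 each, named after their values were seen).

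Long-chain against short-chain β2→1-fructan gave 0 called of 44 members in conventional mice (0.213% over all genes), 1 with an unadjusted p under 0.05 (3.63% over all genes) and 2 without overlap (2.40% over all genes). The log2 differences ran from -0.25 for Gstm2 to 0.29 for Gstt4, which was 0.145 without conventional long replicate 2, and the 95% intervals of all members lay between -0.62 and 0.62.

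In germ-free mice 0 of 44 members were called against water on short-chain (0.579% over all genes) and 0 of 44 on long-chain β2→1-fructan (0.855% over all genes), again with shared water mice. At an unadjusted p under 0.05, 4 and 3 members passed, against 5.71% and 8.74% of all genes. Without overlap with water were 2 members on short-chain (3.03% over all genes) and 1 on long-chain β2→1-fructan (3.27% over all genes). Sult1a1, a phenol sulfotransferase, had the largest difference on short-chain β2→1-fructan. It was 4.96, 5.58, 5.53 and 5.37 on water, 5.84, 5.87, 6.17 and 5.98 on short-chain and 5.92, 5.74, 5.87 and 5.60 on long-chain β2→1-fructan. All mice of both fructan groups were above all water mice (exact permutation p = 0.029 for both). Sult1a1 was named for its small p in these same mice, so that the permutation p are no separate support. The log2 difference was 0.61 (SE 0.24, unadjusted p = 0.017, adjusted p = 0.79) for short-chain and 0.42 (SE 0.24, unadjusted p = 0.084, adjusted p = 0.62) for long-chain β2→1-fructan in limma. In conventional mice, where Sult1a1 ranged from 5.48 to 6.95, its differences from water were -0.03 and -0.08, and the interactions did not pass (unadjusted p = 0.069 and 0.15). With the spread taken from the 12 germ-free arrays alone, Sult1a1 would have been called on short-chain β2→1-fructan (unadjusted p = 2.99e-04, adjusted p above 0.99). Gstp1 (-0.22) and Sult3a1 (-0.18, and -0.11 without germ-free water replicate 2) had the other smallest p on short-chain β2→1-fructan.

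On long-chain β2→1-fructan, the smallest p in germ-free mice belonged to Mgst1. It was 10.2, 10.1, 10.1 and 10.2 on water and 9.97, 9.69, 10.1 and 9.86 on long-chain β2→1-fructan, a difference of -0.24 (SE 0.08, unadjusted p = 0.0057, adjusted p = 0.39 in limma) that was below the fold threshold. All 4 were nevertheless above the highest conventional mouse at 9.65. Gstm3 (-0.57) and Gsto1 (-0.15) followed. For Gstm3 the water group holds the highest value of all mice at 9.80, with 8.73, 8.50 and 8.73 in the other 3 mice. Without that mouse, germ-free water replicate 1, the difference was -0.29 (unadjusted p = 0.17), whereas it would have been called without germ-free water replicate 3 (-0.72) or germ-free long replicate 1 (-0.78).

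Between the fructans, 1 of 44 members was called in germ-free mice (1.41% over all genes). The mu class enzyme Gstm4 was 5.93, 5.96, 5.91 and 6.03 on short-chain and 5.82, 5.38, 5.31 and 5.27 on long-chain β2→1-fructan, with 5.70, 5.51, 5.87 and 5.62 on water. The 2 fructan groups did not overlap, and the water mice were below all short-chain mice and overlapped the long-chain mice. Gstm4 was named for its call in these same mice, so that the permutation p given here is no separate support. Long-chain against short-chain β2→1-fructan gave a log2 difference of -0.51 (SE 0.12, 1.43-fold lower, unadjusted p = 2.20e-04, adjusted p = 0.13 in limma, exact permutation p = 0.029), so that it did not pass adjustment over all genes. In conventional mice the same difference was -0.04 with a 95% interval of -0.29 to 0.20. Over the members the log2 differences between the fructans in germ-free mice ran from -0.51 to 0.28 and the 95% intervals lay between -0.85 and 0.57. No gene of the array passed an adjusted p under 0.05 in any fructan comparison (limma), and 5 members had an unadjusted p under 0.05 here against 12.7% of all genes, with 2 members not overlapping against 5.43% of all genes.

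**Figure D3:**
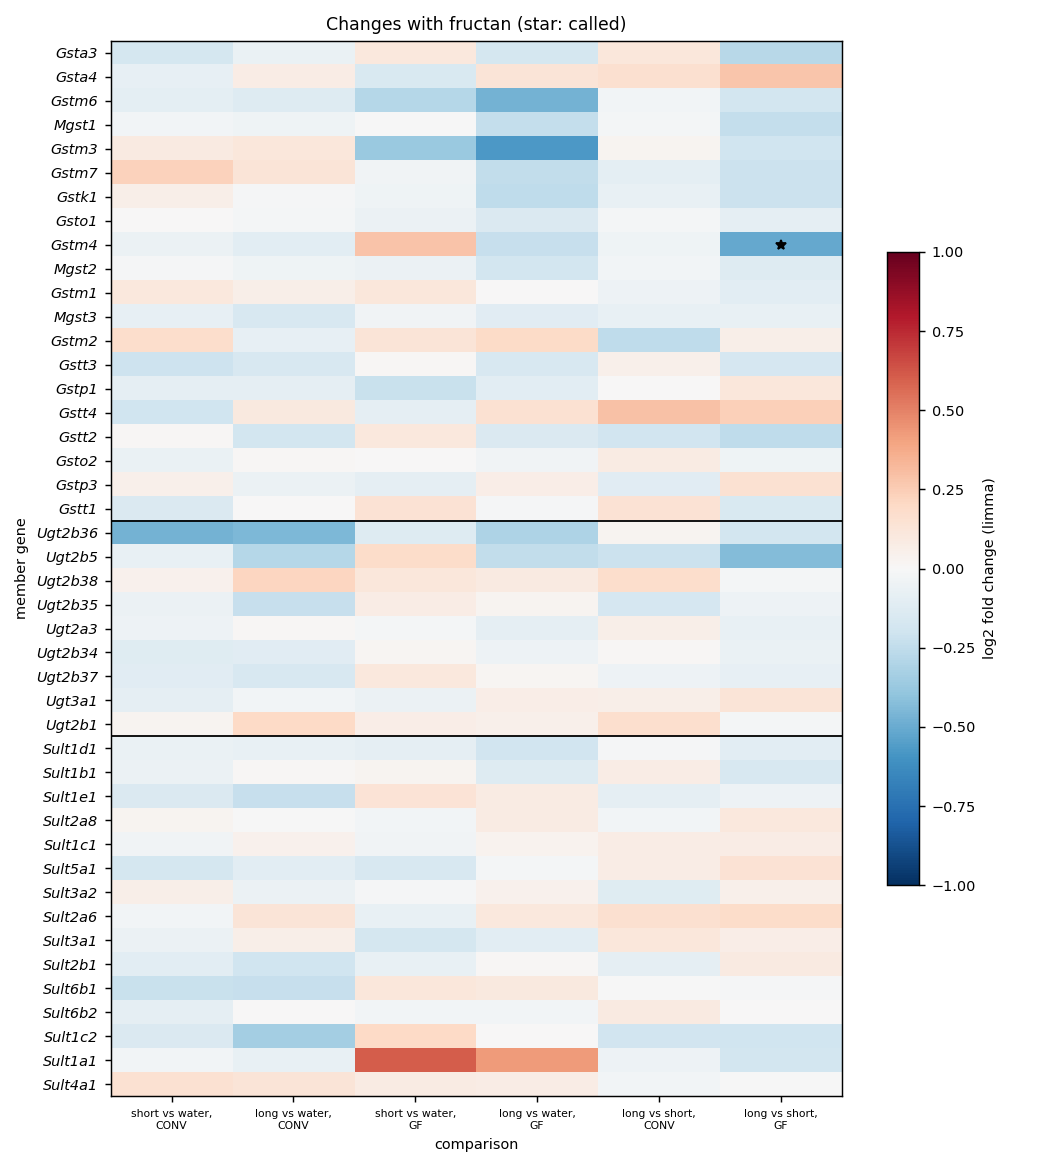
Log2 fold change (colour, limma) of the 44 members (rows, by class) in the 6 comparisons between gavages (columns) in conventional (CONV) and germ-free (GF) mice, 4 mice per group; a star marks a called member. The 1 star is Gstm4 between long-chain and short-chain β2→1-fructan in germ-free mice at -0.51, and the strongest red field is Sult1a1 on short-chain β2→1-fructan in germ-free mice at 0.61.

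Genes around the conjugating enzymes were taken from 9 lists with 94 measured genes in all and are given for germ-free against conventional mice with the gavages averaged. Of 20 NRF2 target genes that are not members, 6 were higher, 1 was lower and 13 did not pass, with a median log2 fold change of 0.20. Higher were Me1 (malic enzyme, 5.33-fold), Gclc (catalytic subunit of the rate-limiting enzyme of glutathione synthesis, 2.10-fold), Pgd (1.42-fold) and Txnrd1 (thioredoxin reductase, 1.36-fold), besides Nqo1 and Akr1b8, and the epoxide hydrolase Ephx1 was 1.32-fold lower. These last 3 were named after their values were seen. Hmox1, a further target, differed by 0.05 (adjusted p = 0.60 in limma). Me1 is also abundant in adipose tissue, whose markers differed between the mice, as given below for the members.

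Of 14 genes of glutathione synthesis and turnover, 3 were higher and 0 lower, namely Gclc, Cth (cystathionine gamma-lyase, which supplies cysteine, 1.99-fold) and Ggct (1.62-fold), with a median of 0.09. Of 9 genes for the donors UDP-glucuronate and PAPS, 2 were higher and 0 lower. They were Ugdh (UDP-glucose dehydrogenase, which makes UDP-glucuronate, 1.76-fold) and Bpnt1 (which degrades the PAPS by-product PAP, 1.35-fold), with a median of 0.21. Of 12 transporters of conjugates, 2 were higher, the efflux pumps Abcc2 (1.47-fold) and Abcg2 (1.35-fold), and 0 lower. Of 13 other conjugating enzymes, 1 was higher, the N-acetyltransferase Nat8, which acts on cysteine conjugates (1.55-fold), and 0 of 4 deconjugating enzymes passed, 0 at an adjusted p under 0.05 as well.

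Target genes of PXR and CAR went in both directions. Of 13 that are not members, 6 were higher and 3 lower, with a median of 0.24. The retinaldehyde dehydrogenase Aldh1a1 (1.92-fold) and the cytochrome P450 Cyp2c65 (1.85-fold) were higher, and the carboxylesterase Ces2a (3.44-fold) and Cyp3a25 (2.74-fold) lower. Of 5 AHR targets, 0 were higher and 1 lower, the AHR repressor Ahrr (1.48-fold), while Cyp1a1 differed by 0.04. Of 11 receptors and transcription factors, Ppara was 1.54-fold higher and Nr0b2 1.33-fold lower. Nfe2l2, which encodes NRF2 itself, was 1.26-fold higher (adjusted p = 1.88e-06), under the fold threshold, and Nr1i2, which encodes PXR, was 1.09-fold lower (adjusted p = 0.015). The share called was 69.2% for PXR and CAR targets, 7 of 20 for NRF2 targets, 22.2% for donor genes, 21.4% for glutathione genes, 1 of 5 for AHR targets, 18.2% for receptors and transcription factors, 16.7% for transporters and 7.69% for other conjugating enzymes, against 8.20% of all genes. The last list, which holds Nat8, was thus near the share of all genes.

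**Figure D4:**
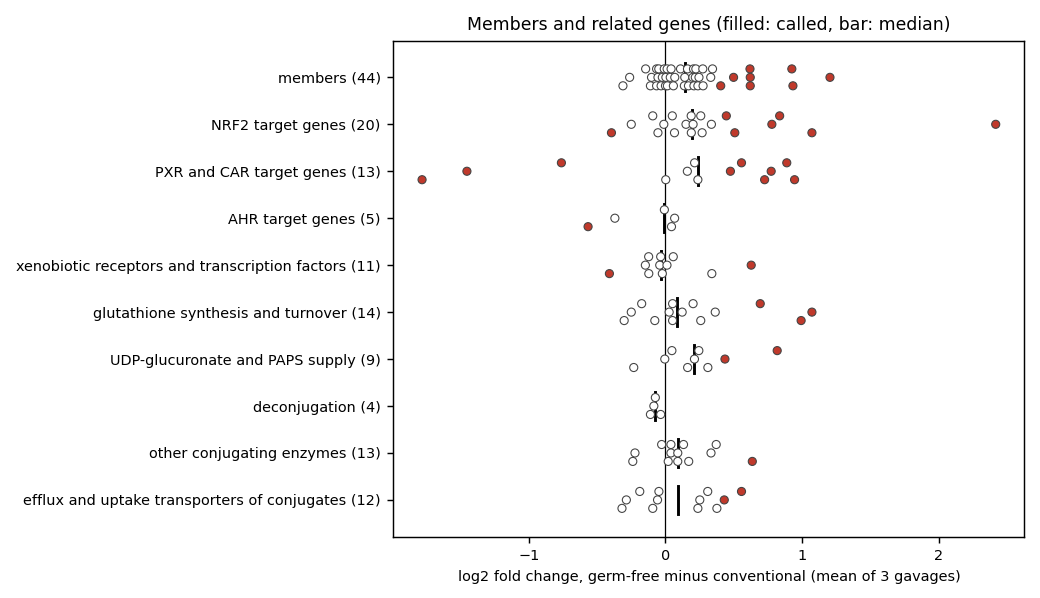
Log2 fold change between germ-free and conventional mice with the 3 gavages averaged (x axis) of every measured gene of the 44 members and of 9 related lists (y axis, number of genes in brackets); filled points are called and the vertical bar is the median. NRF2 targets lie mostly to the right with Me1 at 2.42, whereas PXR and CAR targets hold called genes from -1.78 for Ces2a to 0.94 for Aldh1a1.

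Markers of other cell types moved with colonization too. All 6 measured adipocyte markers, Adipoq, Plin1, Lep, Fabp4, Retn and Lpl, were called higher in germ-free mice, and their mean log2 level was 5.21 to 6.73 in conventional and 6.09 to 8.28 in germ-free mice. Mean levels were lower in germ-free mice, without overlap, for 8 T cell markers (5.00 to 5.51 against 4.05 to 4.50), 6 B and plasma cell markers (5.45 to 5.96 against 4.25 to 5.04), 6 macrophage and dendritic cell markers (6.03 to 6.25 against 5.54 to 6.02), 7 smooth muscle markers (10.2 to 10.4 against 9.21 to 10.1) and 6 Paneth cell markers (10.74 to 11.04 against 10.00 to 10.48). Of 14 genes known to be higher in the proximal small intestine 4 were higher and 3 lower in germ-free mice (mean log2 level 6.30 to 6.78 in conventional and 6.42 to 7.37 in germ-free mice), and of 10 known to be higher in the distal part 1 was called, Fgf15, which was lower (mean log2 level over the 10 genes 9.11 to 9.49 in conventional and 8.78 to 9.79 in germ-free mice). Over all genes 8.20% were called, 2.99% higher and 5.22% lower, so that the distal list was near the share of all genes. In germ-free mice the distal level differed by gavage: 9.128 to 9.786 on water, 8.782 to 9.080 on short-chain and 8.817 to 9.109 on long-chain β2→1-fructan. Both fructan groups were thus below the lowest conventional mouse at 9.112. Against water in germ-free mice, Fgf15 was called lower on short-chain (6.48-fold, adjusted p = 0.34) and long-chain β2→1-fructan (3.97-fold, adjusted p = 0.35 in limma). The part of immune, muscle and Paneth cells and of position along the intestine in the values of the members was not tested.

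The adipocyte level differed between gavages too. In conventional mice the level was 6.12 to 6.16 on water, 5.21 to 5.86 on short-chain and 5.45 to 6.73 on long-chain β2→1-fructan. In germ-free mice it was 6.09 to 8.23, 7.62 to 8.09 and 6.53 to 8.28 in the same order. Its part in the fructan comparisons was not tested. The adipocyte level differed between germ-free mice as well, and Gsta3 was higher where it was higher. Gsta3 was 7.25, 7.28 and 7.13 in the germ-free mice with the 3 highest levels (8.09, 8.23 and 8.28). Only 3 of 12 germ-free mice had a level up to the highest conventional one (6.73). In these 3 mice, with levels of 6.09, 6.50 and 6.53, Gsta3 was 6.31, 6.52 and 6.19, against at most 5.71 in conventional mice. As the levels overlap so little, a fit with this level cannot tell it apart from colonization. With the adipocyte level as a covariate in limma, chosen after seeing the data, the difference of Gsta3 fell from 1.20 to 0.61 (SE 0.14, adjusted p = 0.0043) and its call was lost on short-chain (0.57, unadjusted p = 0.014) and long-chain β2→1-fructan (0.48, unadjusted p = 0.011). Gsta4 (0.88), Mgst1 (0.55) and Ugt2b36 (1.20) kept their calls in all 3 gavages and in their average, Gstm3 (0.73) and Gstm6 (0.76) kept theirs in the average, whereas Ugt2b5 (0.55, unadjusted p = 0.016) and Ugt2b38 (0.38, unadjusted p = 0.036) lost theirs. On short-chain β2→1-fructan Gstm4 (0.43, unadjusted p = 0.038), Ugt2b5 (0.68, unadjusted p = 0.047) and Ugt2b38 (0.45, unadjusted p = 0.096) were no longer called with this covariate, and on long-chain β2→1-fructan Ugt2b5 was not either (0.49, unadjusted p = 0.072).

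**Figure D5:**
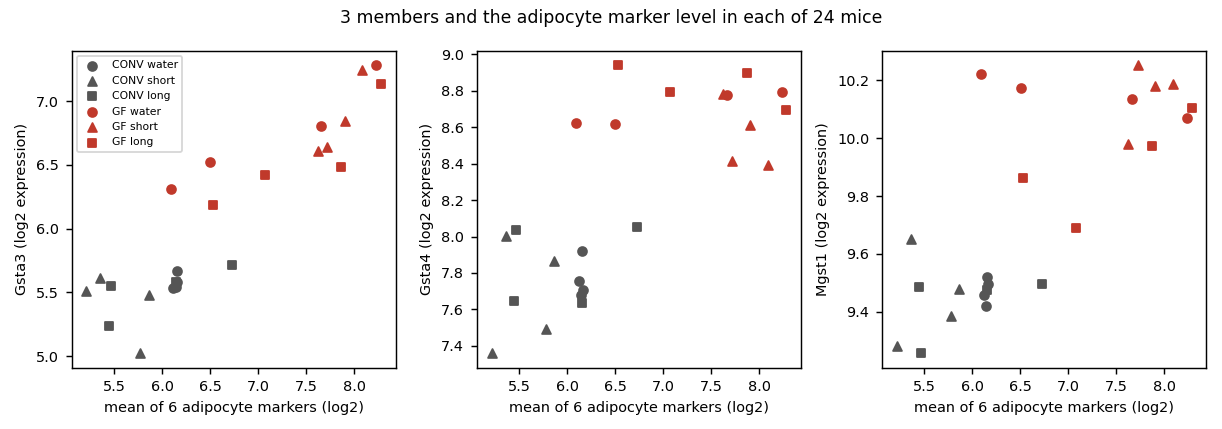
Log2 expression of Gsta3, Gsta4 and Mgst1 (y axes) against the mean log2 level of 6 adipocyte markers (x axes) in each of 24 mice, conventional (CONV) in grey and germ-free (GF) in red, with symbols for the gavage. Gsta3 lies higher in germ-free mice with a higher adipocyte level, up to 7.28, and for the 3 genes all germ-free points lie above all conventional points.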

How the data were processed

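RNA of the terminal ileum of 24 mice was measured on 1 Affymetrix Mouse Gene 1.1 ST array each, and groups and replicate numbers were taken from the sample labels. The authors deposited log2 expression values made by robust multiarray averaging, with background correction and quantile normalization, which levels differences in total signal between arrays. The methods name remapped probe sets, whereas the deposited values carry the manufacturer's. They were used as deposited.

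Of 35556 probe sets, 21218 with 1 gene symbol were kept (1881 carry several symbols and 12457 none), and where several named the same gene the brightest on average was taken, for 18820 genes. All 44 members matched a RefSeq gene of GRCm38.

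All genes were fitted with limma 3.58.1 in R 4.3.3, with 1 mean for each of 6 groups, all 24 arrays and eBayes with an intensity trend. Genes with p under 0.01 before adjustment and a difference over 1.3-fold are called; Benjamini-Hochberg adjusted p are over all genes. Single genes were also compared by exact permutation over the 35 divisions of 8 mice. The fit was tested on simulated data. Lists were described by counts and medians, without a test.

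Members and lists were chosen with earlier results of these data known. Named are up to 25 called members in the averaged comparison, up to 8 in the others or the 3 with the smallest p where none was called, and up to 4 called genes of each list; other members are given by counts and ranges. Since nothing states how the mice were housed within groups, p-values measure the spread between these mice. Alternatives were the prior (1 for all genes, or the study's own moderated t based on intensity), only the arrays concerned, array weights, cyclic loess, averaging of probe sets, leaving out dim genes or 1 mouse, and a replicate block. Numbers shared between groups do not pair the mice.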

Additional observations from a re-analysis of the deposited data

Results flagged for a closer look

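Within groups of 4, single mice stood apart from the other 3 for 3 members, by the ratio of their gap to the range of the group (Dixon's test). This was 3 of 126 groups examined over the named members, fewer than the 1 in 20 that chance gives. Sult1a1 was 6.947 in conventional short replicate 3 and 5.577 to 5.702 in the other 3 mice. Mgst1 was 9.258 in conventional long replicate 4 and 9.475 to 9.497 in the others. Gstt4 was 4.302 in conventional long replicate 2 and 3.68 to 3.782 in the others.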

How the results depend on the processing

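Germ-free against conventional mice with the gavages averaged kept between 7 and 9 called members without any 1 mouse, where the full set gave 8. With dim genes left out, 22 members remained for testing and 4 were called, as they were on water and on short-chain β2→1-fructan (7 each with all genes). With the gavages averaged, the calls missing were those of Ugt2b36, Ugt2b5, Ugt2b38 and Gstm6. Their mean log2 levels (5.19, 5.26, 4.23 and 4.73) are below the median of all genes (5.534), so that this fit did not test them. On water, 11 were called with only the arrays of the 2 groups, and 6 to 9 without any 1 mouse. On short-chain β2→1-fructan the count was 6 to 9 and on long-chain β2→1-fructan 4 to 6 without any 1 mouse. In conventional mice, short-chain β2→1-fructan against water gave 1 call in place of 0 with the 12 arrays of that status, and 0 to 1 without any 1 mouse (1 without conventional water replicate 2 or conventional short replicate 4). Long-chain β2→1-fructan gave 0 to 1 (1 without conventional water replicate 2 or conventional long replicate 1). In germ-free mice, short-chain β2→1-fructan against water gave 1 with the 8 arrays of the groups or the 12 of that status. Long-chain β2→1-fructan gave 1 with the 12 arrays, and 0 to 1 without any 1 mouse (1 without germ-free water replicate 3 or germ-free long replicate 1). Between the fructans it was 1 to 2 (2 without germ-free short replicate 1). The interactions gave 0 to 1 for short-chain (1 without conventional water replicate 1 or 4 or conventional short replicate 3) and 0 to 2 for long-chain β2→1-fructan (1 without conventional water replicate 1 or 4, 2 without germ-free long replicate 1). The causes were not tested beyond the fewer genes or arrays of these fits. No value of a named member changed sign, and 397 of 413 values of named members under settings other than leaving out a mouse kept their side of the threshold.

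Among same-numbered mice of different groups, deviations from the group means correlated by 0.004 on average (range -0.137 to 0.182 over 60 pairs). Over 180 pairs of other numbers the average was -0.001. For 8 of 24 mice the mean correlation by number was highest with mice of their own number. By these values the numbers give no pairing. With the number as a replicate block, Ugt2b5 on long-chain β2→1-fructan was no longer called (log2 fold change 0.558, unadjusted p = 0.0129 in limma), and no other called or uncalled named member changed side. Cyclic loess moved the median of all genes by less than 0.1. The number of arrays limits what fructan differences could pass. Low values limit the 10 dimmest members, and origin, sterilization and cell composition limit what colonization and fructan can be credited with.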
